A study of Mus musculus with 14 samples.

Results

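Collagen genes and extracellular matrix genes of the meninges were followed in cultured mouse cortical neurons. Members were taken by symbol from the gene count matrix: every symbol that reads Col, a number, the letter a and a number (44 genes), with 10 named genes added (Lum, Dcn, Postn, Fn1, Sparc, Bgn, Fbln1, Ogn, Aldh1a2 and Foxc1). They came to 54 of 52459 symbols. The rule itself used no measured value, but it was chosen with earlier results of these data known. Of the 54, 51 passed the filter on low counts and were tested among 17732 genes. Col6a6, Col17a1 and Col28a1 did not pass and stayed at or below 0.398 CPM (the scaled share of a library's counts, with TMM factors for composition) in every library.

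The study asked how phosphorylation of BRG1 at S1382 bears on transcription that follows neuronal activity; BRG1 is the motor subunit of BAF, which moves nucleosomes. Cortical neurons came from knock-in embryos at E16.5 whose BRG1 carries S1382A (alanine, called SA) or S1382E (glutamate, called SE), and from wild-type littermates of each line. All wells were coated with poly-L-ornithine and fibronectin protein and held neurobasal plus medium with B27 plus. Cultures were pretreated with 1 µM TTX, a sodium channel blocker, and 100 µM APV, an NMDA receptor blocker, on day 5 in vitro. They received 50 mM KCl for 1 h on day 6, or stayed at the basal KCl level. The SA line gave SA and wild-type groups of 2 libraries each at basal and 2 each after KCl (8 libraries). The SE line gave SE groups of 2 libraries each and a wild type of 1 library per treatment (6 libraries). Basal and KCl libraries that have their genotype, line and number in common are called a culture, 4 in the SA line and 3 in the SE line. Whether they were grown from the same cells is not in the labels, nor whether replicates are separate animals, so p-values measure only the spread between these libraries. The labels do not give the embryos pooled per culture, the strain background or the day of preparation, and any of these cannot be told apart from the line.

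Collagens are trimers of alpha chains that fold into a triple helix. Fibrillar collagens form the fibrils of connective tissue, collagen IV forms the sheet of basement membranes, collagen VI forms beaded filaments, and fibril-associated collagens coat the surface of fibrils. In the embryonic brain most of this matrix is laid down by meningeal fibroblasts and by cells of the vessel wall, while neurons express few collagens, among them the transmembrane chains. Lumican (Lum), decorin (Dcn), biglycan (Bgn) and osteoglycin (Ogn) are small leucine-rich proteoglycans that bind collagen fibrils. Periostin (Postn), fibronectin (Fn1), SPARC and fibulin-1 (Fbln1) are secreted matrix proteins. Foxc1 is a transcription factor of the developing meninges, and Aldh1a2 makes retinoic acid there.

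The libraries held 22626000 to 23096000 estimated counts each and 24522 to 25622 detected symbols, with 5.91% to 8.32% of counts from mitochondrial genes. The 7 pan-neuronal markers, which define the labelled cell type, summed to between 4013 and 6731 CPM. The first principal component held 65.5% of the variance and separated the lines, and on the second (9.33%) wild-type culture 1 (SA line) stood apart with its basal and KCl libraries. Results that rest on this culture are given with and without it.

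Ranked by TPM (a share of transcripts, which corrects for length), Sparc was far above the rest in both lines. Its TPM ran from 182 to 609 with a median of 358 in the 8 SA-line libraries, and from 60.9 to 108 with a median of 92.1 in the 6 SE-line libraries. In the SA line the next medians were those of Col4a1 (34.4 TPM), Fn1 (25.8 TPM), Ogn (21.5 TPM) and Col4a2 (21 TPM), whose ranges overlap. In the SE line Fbln1 was second with a median of 29.9 TPM and a lowest value of 26.3, above the highest TPM of Col26a1 (17.7), which followed with a median of 14.7 TPM, with 39.7% of its mean TPM in coding transcripts. Over the 14 libraries 36 members averaged at least 1 TPM and 23 at least 5 TPM.

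The clearest difference was between the lines. Each line was the mean of its mutant and wild-type groups with equal weight, so S1382E against S1382A is part of this comparison. The lone wild-type library of the SE line thus counted as much as both SE libraries at each treatment. At basal, 36 of the 51 tested members were lower in the SE line than in the SA line and 4 were higher, at an adjusted p under 0.05 (edgeR quasi-likelihood test, Benjamini-Hochberg over all genes). Over all genes tested 25.2% were lower and 20.7% were higher in this comparison. The median log2 difference was -1.80 for the members and 0.00394 for all genes. After KCl 32 members were lower (25.9% of all genes) and 5 were higher (22.2% of all genes), with a median of -1.43 against -0.01 for all genes. In 29 members every SE-line library was below every SA-line library, as in 20.8% of all genes, and in 5 members every one was above (Col10a1, Col15a1, Col23a1, Col24a1 and Fbln1), as in 18.6% of all genes. Without wild-type culture 1 the medians were -1.55 at basal and -1.34 after KCl. The basal calls of 27 of the 40 members held in all 19 alternative analyses.

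**Figure D1:**
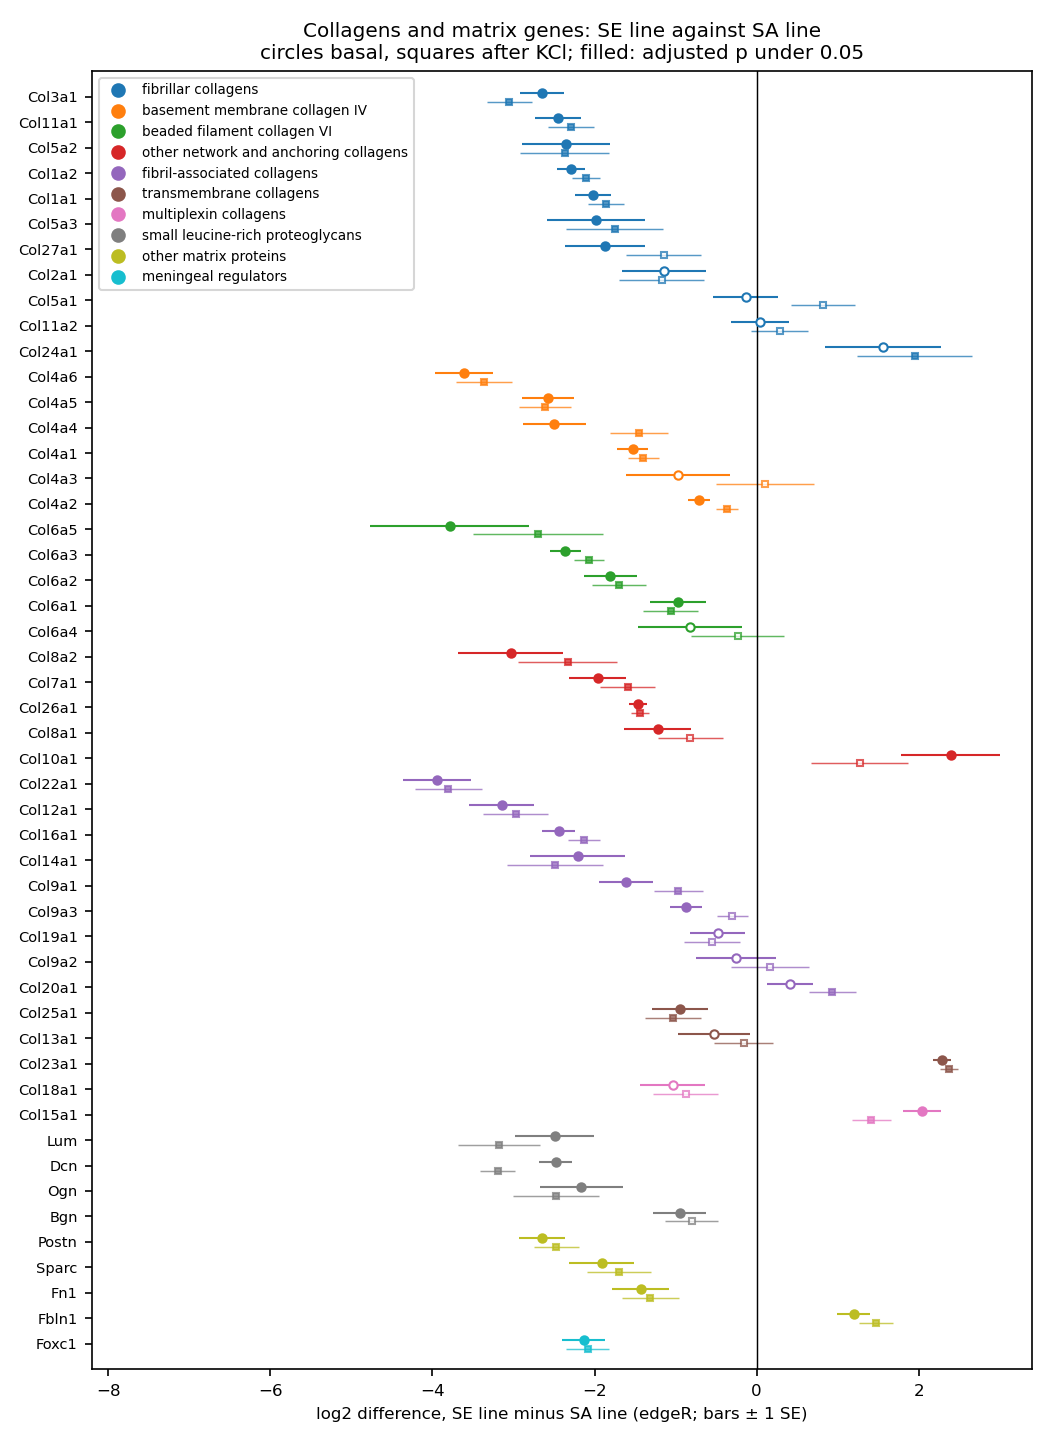
Log2 difference of each tested member except Aldh1a2 between the SE line and the SA line (x axis, bars ± 1 SE) at basal (circles) and after KCl (squares), with members by class on the y axis and filled symbols for an adjusted p under 0.05. Most symbols lie left of 0, while Col23a1, Col15a1 and Fbln1 lie right of 0 at both treatments.

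Of the 11 fibrillar collagens, 7 were lower in the SE line at basal and none passed as higher. Col3a1, which forms thin fibrils of soft connective tissue (chromosome 1, 45311538 to 45349706), ran from 23.2 to 71.2 CPM with a median of 35.9 in the SA line and from 4.28 to 7.26 CPM with a median of 5.08 in the SE line. The highest SE-line library was thus below the lowest SA-line library, and the basal log2 difference was -2.65 ± 0.27 (SE; 6.28-fold lower, adjusted p = 6.81e-05). Col1a1 and Col1a2, the chains of type I collagen, behaved alike. Col1a1 (chromosome 11, 94936224 to 94953042) ran from 21.1 to 48.8 CPM (median 37.0) in the SA line and from 4.42 to 12.1 CPM (median 8.03) in the SE line, a basal log2 difference of -2.02 ± 0.23. Col1a2 (chromosome 6, 4504814 to 4541544) ran from 32.0 to 56.1 CPM (median 48.6) and from 6.56 to 13.9 CPM (median 8.88), a difference of -2.29 ± 0.18. Neither gene overlapped between the lines. Col11a1, Col5a2, Col5a3 and Col27a1 made up the other calls. Col2a1 of cartilage (-1.14 ± 0.52), Col11a2 (0.04 ± 0.36), Col5a1 (-0.14 ± 0.41) and Col24a1 (1.56 ± 0.71) did not pass at basal.

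Type V collagen, which nucleates fibrils, showed its chains apart. Col5a1 ran from 14.3 to 66.0 CPM in the SA line and from 20.6 to 61.8 CPM in the SE line, so its lines overlapped. Its partner Col5a2 ran from 21.9 to 112 CPM (median 39.4) in the SA line and from 5.19 to 12.1 CPM (median 9.71) in the SE line, with no overlap. The ratio of Col5a1 to Col5a2 in TPM was 0.342 to 0.505 in the SA line and 1.52 to 5.16 in the SE line. The ratio of Col1a1 to Col1a2 overlapped between the lines, at 0.559 to 0.774 and 0.567 to 0.850.

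Among the 6 collagen IV chains of basement membranes, 5 were lower at basal. Col4a1 (chromosome 8, 11198423 to 11312826) ran from 92.5 to 162 CPM (median 137) in the SA line and from 39.2 to 58.1 CPM (median 47.0) in the SE line, a log2 difference of -1.53 ± 0.19 with no overlap. Col4a2, its partner in the widespread collagen IV trimer and its head-to-head neighbour on the genome, differed by only -0.71 ± 0.14, and its lines overlapped (71.3 to 116 and 54.6 to 90.1 CPM). The TPM ratio of Col4a1 to Col4a2 was 1.27 to 1.78 in the SA line and 0.778 to 1.37 in the SE line. The X-linked pair differed more: Col4a5 by -2.58 ± 0.32 and Col4a6 by -3.61 ± 0.36. Col4a6 ran from 8.56 to 23.1 CPM in the SA line and from 0.956 to 2.06 CPM in the SE line. Col4a4 was lower by 5.64-fold, and Col4a3 (-0.97 ± 0.64) did not pass.

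Of the 5 tested collagen VI chains 4 were lower at basal. Col6a3 (chromosome 1, 90765923 to 90843971) ran from 4.05 to 7.30 CPM (median 4.82) in the SA line and from 0.728 to 1.42 CPM (median 1.10) in the SE line, a log2 difference of -2.36 ± 0.19 (adjusted p = 2.13e-05) with no overlap. Col6a2 differed by -1.80 ± 0.33, and Col6a5 by -3.79 ± 0.98 at levels of at most 2.33 CPM. Col6a1, the chain of this class with the highest mean TPM, ran from 7.16 to 26.3 CPM (median 10.2) against 4.84 to 7.38 CPM (median 5.79). Its ranges overlapped, and its call (-0.97 ± 0.34, adjusted p = 0.0438) held in 9 of 19 alternatives.

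Of the 9 fibril-associated collagens 6 were lower at basal, and among them was Col22a1, with the largest basal difference of the tested collagens. Col22a1, a collagen of tissue junctions (chromosome 15, 71795795 to 72034227), ran from 6.91 to 18.2 CPM (median 11.2) in the SA line and from 0.406 to 1.00 CPM (median 0.830) in the SE line, 15.4-fold lower at basal (-3.95 ± 0.42). Col12a1 (chromosome 9, 79598991 to 79718831) ran from 38.7 to 125 CPM (median 76.3) and from 5.60 to 10.4 CPM (median 9.32), 8.85-fold lower. Both left a wide gap between the lines. Col16a1 was 5.44-fold and Col14a1 4.62-fold lower. Of the type IX chains, known from cartilage, Col9a1 and Col9a3 were lower at basal and Col9a2 did not pass. Col9a3, the member of this class with the highest mean TPM, ran from 17.7 to 35.0 CPM in the SA line and from 11.1 to 28.7 CPM in the SE line, and after KCl its difference (-0.30 ± 0.19) did not pass.

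The other network and anchoring collagens divided. Col8a2, Col7a1, Col26a1 and Col8a1 were lower at basal and Col10a1 was higher. Col26a1 (chromosome 5, 136741759 to 136883209) ran from 30.1 to 38.7 CPM (median 33.1) in the SA line and from 11.4 to 15.2 CPM (median 12.2) in the SE line, a log2 difference of -1.46 ± 0.11 with no overlap. Col10a1, the hypertrophic cartilage collagen (chromosome 10, 34389981 to 34397085), ran from 0.199 to 6.42 CPM (median 3.73) in the SA line and from 8.48 to 18.0 CPM (median 11.5) in the SE line, with a difference of 2.40 ± 0.61 at basal and 1.27 ± 0.60 after KCl, where it did not pass. Col10a1 lies inside Nt5dc1 on the opposite strand, and since no source used here gives whether counting used strand, its reads are uncertain. In all, 21 members overlap a gene of the opposite strand.

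The transmembrane and multiplexin collagens divided, with Col23a1 and Col15a1 higher in the SE line at basal and Col25a1 lower. Col23a1, a transmembrane collagen (chromosome 11, 51289920 to 51583918), ran from 6.42 to 8.14 CPM (median 7.29) in the SA line and from 30.8 to 43.0 CPM (median 35.0) in the SE line. That is 4.89-fold higher at basal (2.29 ± 0.11, adjusted p = 1.79e-06) and 5.18-fold higher after KCl, and the lowest p of any member at both treatments. Col15a1, a basement membrane proteoglycan (chromosome 4, 47208161 to 47313167), ran from 0.800 to 1.74 CPM (median 1.18) and from 2.84 to 5.68 CPM (median 4.20), higher by 2.04 ± 0.23 at basal. Both genes were above the SA line in every SE-line library. Col25a1, a neuronal transmembrane collagen first known from amyloid plaques (chromosome 3, 130131501 to 130599877), went the other way, at 3.59 to 8.0 CPM (median 5.98) against 2.37 to 3.53 CPM (median 2.80). Its call (-0.94 ± 0.34, adjusted p = 0.0483) held in 9 of 19 alternatives. Col18a1, the precursor of endostatin, overlapped between the lines (medians 33.2 and 18.7 CPM, highest 74.0 and 21.8 CPM) and did not pass (-1.04 ± 0.40).

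All 4 small leucine-rich proteoglycans were lower in the SE line at basal. Dcn (chromosome 10, 97479609 to 97518143) ran from 7.57 to 19.1 CPM (median 11.5) in the SA line and from 1.05 to 2.10 CPM (median 1.95) in the SE line, a difference of -2.48 ± 0.20. Lum, next to it on chromosome 10 (97565128 to 97572703), ran from 1.25 to 8.72 CPM (median 2.79) and from 0.226 to 0.913 CPM (median 0.368), a difference of -2.49 ± 0.49. Ogn (chromosome 13, 49608046 to 49624501) ran from 11.3 to 53.1 CPM (median 25.3) and from 4.37 to 7.49 CPM (median 5.19), a difference of -2.16 ± 0.51. None of the 3 overlapped between the lines. Bgn (-0.95 ± 0.33) overlapped, and its call held in 10 of 19 alternatives.

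Of the 4 matrix glycoproteins 3 were lower and 1 was higher. Sparc, a collagen-binding protein (chromosome 11, 55394500 to 55423183), ran from 249 to 730 CPM (median 439) in the SA line and from 86.4 to 152 CPM (median 129) in the SE line, a difference of -1.91 ± 0.40. Postn (chromosome 3, 54361109 to 54391037) ran from 8.61 to 26.3 CPM (median 13.5) and from 1.64 to 3.09 CPM (median 2.29), a difference of -2.64 ± 0.29. Fn1 (chromosome 1, 71585520 to 71653200) ran from 66.8 to 196 CPM (median 124) and from 25.3 to 59.6 CPM (median 50.5), a difference of -1.43 ± 0.35. The lines stayed apart for each of these genes. Fbln1 (chromosome 15, 85205949 to 85286535) was the opposite, at 18.0 to 31.7 CPM (median 20.2) in the SA line and 50.5 to 70.9 CPM (median 55.5) in the SE line, 2.30-fold higher at basal and 2.78-fold higher after KCl.

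Both meningeal regulators were lower in the SE line. Foxc1 (chromosome 13, 31806633 to 31812476) ran from 1.91 to 4.93 CPM (median 3.35) in the SA line and from 0.550 to 1.09 CPM (median 0.772) in the SE line, a difference of -2.13 ± 0.26. Aldh1a2 (chromosome 9, 71215789 to 71296243) had 11 to 133 counts in each SA-line library, 400 in all, and 1 count in the 6 SE-line libraries together, 5 of which were at 0. The ratio of the pooled levels was 275 (95% interval 49.1 to 10890, exact, for counting error only).

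**Figure D2:**
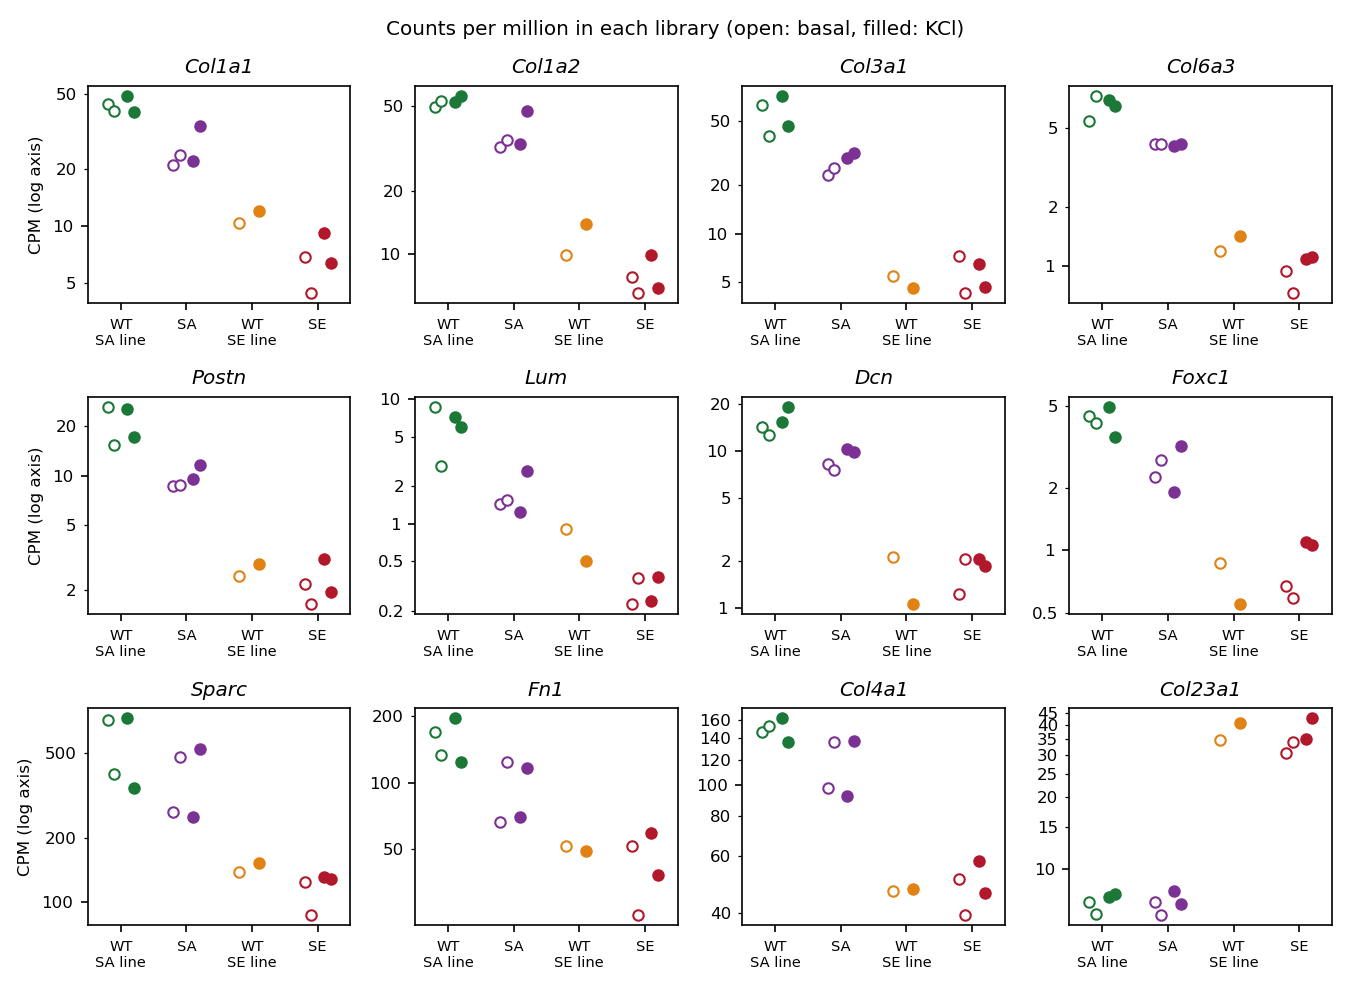
CPM on a log axis of 12 members in every library, with open symbols at basal and filled symbols after KCl, for wild type and SA of the SA line and wild type and SE of the SE line. For Col1a1, Col1a2, Col3a1, Col6a3, Postn, Lum, Dcn and Foxc1 all wild-type libraries of the SA line lie above all SA libraries, and both lie above the SE line, while Col23a1 is higher in the SE line.

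Promoter sequence was at hand in RefSeq for 42 of the 54 members (GRCm38.p6). The 250 bases before the RefSeq start are shown for 4 members that differ in behaviour and whose window holds no annotated exon. They are Col3a1, lower in the SE line, Col15a1 and Col23a1, higher there, and Col5a1, which overlapped between the lines while Col5a2 did not. The Col15a1 window ends at 47208011, short of the gene start given above (47208161), while the other windows end at the base before the annotated gene start. All are on the plus strand, 5′ to 3′, and capitals mark every match on either strand to the TATA box TATAAA, the CCAAT box CCAAT, the Sp1 box GGGCGG, the CREB site TGACGTCA and the AP-1 site TGANTCA.
Col3a1, chr1:45311288-45311537: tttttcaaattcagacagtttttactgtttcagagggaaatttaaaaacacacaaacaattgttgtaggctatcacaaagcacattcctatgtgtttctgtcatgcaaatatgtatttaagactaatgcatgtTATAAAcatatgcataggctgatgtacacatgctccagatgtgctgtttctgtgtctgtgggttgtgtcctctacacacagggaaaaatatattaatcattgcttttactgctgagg
Col15a1, chr4:47207762-47208011: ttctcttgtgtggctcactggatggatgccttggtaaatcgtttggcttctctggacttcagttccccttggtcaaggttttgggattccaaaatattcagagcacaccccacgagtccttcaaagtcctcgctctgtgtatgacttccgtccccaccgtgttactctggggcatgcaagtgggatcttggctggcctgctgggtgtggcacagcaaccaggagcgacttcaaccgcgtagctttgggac
Col23a1, chr11:51289670-51289919: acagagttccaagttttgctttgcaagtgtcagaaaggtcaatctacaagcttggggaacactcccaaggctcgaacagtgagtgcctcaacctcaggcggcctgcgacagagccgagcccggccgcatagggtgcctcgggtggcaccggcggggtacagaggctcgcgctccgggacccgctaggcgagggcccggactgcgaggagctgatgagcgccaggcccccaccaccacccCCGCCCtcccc
Col5a1, chr2:27886175-27886424: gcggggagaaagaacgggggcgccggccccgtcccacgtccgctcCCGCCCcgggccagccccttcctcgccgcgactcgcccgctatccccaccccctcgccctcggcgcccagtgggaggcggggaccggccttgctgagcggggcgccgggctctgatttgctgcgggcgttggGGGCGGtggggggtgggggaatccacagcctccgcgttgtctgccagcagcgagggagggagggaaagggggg
The Col3a1 window is rich in A and T and holds 1 match to TATAAA at -117 to -112, counted back from the start. The windows of Col23a1 and Col5a1 are rich in G and C and hold 1 and 2 matches to GGGCGG, while that of Col15a1 holds none of the 5. GGGCGG was in 23 of the 42 members' windows (54.8%) and in 32.7% of 32851 windows in all. Members were counted with 1 window per gene, while the 32851 windows were not reduced to 1 per gene. CCAAT was in 14 (33.3% against 33.8%), TATAAA in 6 (14.3% against 12.4%), TGANTCA in 1 (2.38% against 6.75%) and TGACGTCA in 0 (1.55% of all windows). A match is a string of letters and does not show binding.

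Genes that make, bind and cut collagen followed in part. Over all genes 25.2% were lower in the SE line at basal and 20.7% were higher, and no list was tested against these shares. Of 29 genes for collagen synthesis and crosslinking, 16 were lower in the SE line at basal and 2 were higher. They included the lysyl hydroxylase Plod1 (-1.19 ± 0.13), the prolyl hydroxylase subunit P4ha3 (-2.66 ± 0.30) and the lysyl oxidase relative Loxl3 (-2.54 ± 0.31). Of 9 tested collagen receptors 6 were lower, led by the integrin chains Itga2 (-2.31 ± 0.21), Itga1 (-2.58 ± 0.26) and Itgb1 (-1.25 ± 0.17). Of 9 tested matrix proteases and inhibitors 4 were lower, among them Mmp14 (-2.04 ± 0.20) and Mmp15 (-1.19 ± 0.15), and 1 was higher. Of 11 laminins and basement membrane partners 10 were lower, among them Nid1 (-2.26 ± 0.19), Lama2 (-3.71 ± 0.33) and Lamb2 (-2.65 ± 0.29).

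Many markers of other cell types differed between the lines too, beside 25.2% of all genes lower in the SE line at basal and 20.7% higher. Meningeal fibroblast markers outside the members summed to between 449 and 1219 CPM in the SA line and between 264 and 327 CPM in the SE line. Of their 15 tested genes 8 were lower at basal, from Pdgfra (-4.67 ± 0.17) at the largest difference to Prrx1 (-1.72 ± 0.34) at the smallest. The 2 higher were Crabp2 (1.67 ± 0.45) and Zic1 (1.31 ± 0.27). Foxc2, Twist1, Igfbp2, Slc22a6 and Mgp did not pass. Mural cell markers of the vessel wall summed to 345 to 1146 CPM in the SA line and 47.4 to 70.4 CPM in the SE line (7 of 9 tested lower). Astrocyte markers summed to 1820 to 2828 CPM against 459 to 583 CPM (8 of 8 lower), and proliferation genes to 285 to 746 CPM against 23.4 to 31.9 CPM (7 of 7 lower). Endothelial markers summed to 9.91 to 54.8 CPM against 5.28 to 6.84 CPM (2 of 5 tested lower) and microglial markers to 57.3 to 72.7 CPM against 14.3 to 20.3 CPM (5 of 7 lower). Glutamatergic neuron markers were the reverse, at 741 to 1665 CPM in the SA line and 2901 to 3176 CPM in the SE line (5 of 9 higher). In none of these lists was a gene at 0 in all libraries. In bulk RNA fewer cells of a type and less RNA per cell cannot be told apart, and the part of cell makeup in the collagen differences was not tested.

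**Figure D3:**
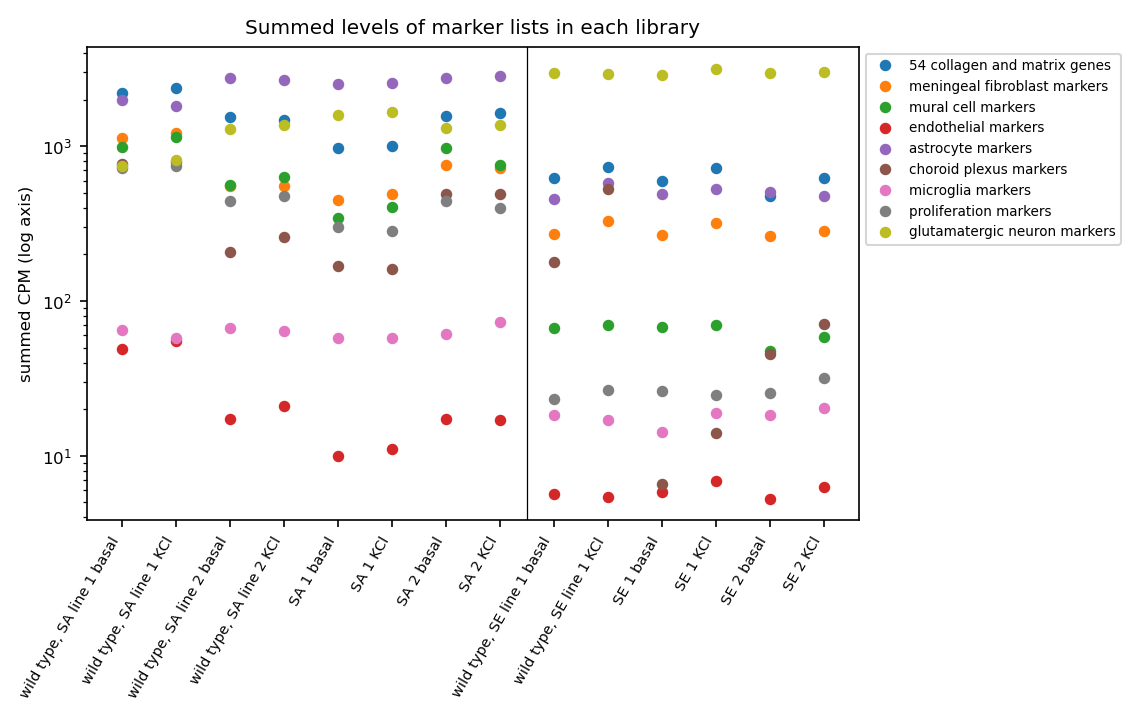
Summed CPM on a log axis of the 54 collagen and matrix genes and of 8 marker lists in each of the 14 libraries, with the vertical line between the SA line and the SE line. The collagen and matrix sum runs from 975 to 2372 CPM in the SA line and from 477 to 730 CPM in the SE line, while glutamatergic markers are higher in the SE line and the choroid plexus sum varies widely within the SE line.

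Within the SA line the question is whether SA neurons differ from wild-type littermates. No gene passed in this comparison, at basal or after KCl (0% of 17732 genes by edgeR, 0 members). At an unadjusted p under 0.05 there were 11 members at basal, where 7.21% of all genes reached it, and 11 after KCl, where 11.5% did, and all of these members were lower in SA. The median log2 difference of the members was -0.57 at basal and -0.45 after KCl, against 0.01 for all genes at both treatments, and 39 of 51 members at basal and 36 after KCl had a value below 0. DESeq2 called no member in either comparison, but its share over all genes is not given here to set beside that.

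In 11 members all 4 SA libraries were below all 4 wild-type libraries, as in 5.71% of all genes. They were Aldh1a2, Col1a1, Col1a2, Col3a1, Col6a1, Col6a2, Col6a3, Dcn, Foxc1, Lum and Postn. Col9a2 alone was above in every library, as in 8.84% of all genes. Col1a1 was at 44.2 and 40.8 CPM in wild type at basal (cultures 1 and 2) and at 21.1 and 23.8 CPM in SA. After KCl it was at 48.8 and 40.1 CPM in wild type and at 22.0 and 33.8 CPM in SA. The groups did not overlap, and SA culture 2 after KCl came nearest to wild type. The log2 differences of -0.92 ± 0.26 at basal and -0.67 ± 0.25 after KCl had adjusted p of 0.621 and 0.394 (edgeR).

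Col1a2 followed the same order, with wild type at 49.7 and 53.2 CPM at basal and 52.3 and 56.1 CPM after KCl, and SA at 32.0 and 34.7 CPM at basal and 33.1 and 47.4 CPM after KCl. Its log2 difference was -0.63 ± 0.20 at basal and -0.43 ± 0.19 after KCl. Col6a3 was flat within SA, at 4.17 and 4.15 CPM at basal and 4.05 and 4.18 CPM after KCl, against 5.45 and 7.30 CPM and then 6.96 and 6.52 CPM in wild type. For these chains both wild-type cultures lay above both SA cultures.

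In other members wild-type culture 1 lay well above wild-type culture 2. Col3a1 was at 62.4 and 40.5 CPM in wild type at basal and at 71.2 and 46.4 CPM after KCl, against 23.2 and 25.4 CPM and then 29.4 and 31.3 CPM in SA. Postn was at 26.3 and 15.4 CPM and then 25.3 and 17.1 CPM in wild type, against 8.61 and 8.73 CPM and then 9.52 and 11.6 CPM in SA. Lum was at 8.72 and 2.91 CPM and then 7.20 and 6.01 CPM in wild type, against 1.43 and 1.54 CPM and then 1.25 and 2.67 CPM in SA. Their basal log2 differences were -1.08 ± 0.29, -1.26 ± 0.31 and -1.96 ± 0.51, and the adjusted p was 0.621 for each. Without wild-type culture 1 these became -0.74, -0.83 and -0.96, each with an adjusted p of 0.913. Aldh1a2 went from -1.86 to -0.65 and Col6a1 from -1.16 to -0.45 when that culture was left out, while Col1a1 (-0.86), Col1a2 (-0.67), Dcn (-0.67), Foxc1 (-0.72) and Col6a3 (-0.81) stayed closer to their values over all libraries.

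Sparc and Ogn overlapped between the genotypes. Sparc was at 711 and 399 CPM in wild type at basal and at 263 and 479 CPM in SA, so culture 2 of SA exceeded culture 2 of wild type. Without wild-type culture 1 its log2 difference went from -0.58 to -0.11 at basal, and after KCl it turned from -0.48 to 0.17, with no call in either case. Ogn went from -0.82 to a value near 0 (-0.00082) at basal. Fn1 was at 170 and 133 CPM in wild type and at 66.8 and 124 CPM in SA at basal, and at 196 and 124 CPM and then 70.1 and 116 CPM after KCl. Both wild-type cultures were above both SA cultures within each treatment, and SA culture 2 at basal lay level with wild-type culture 2 after KCl.

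The order of the 4 SA-line cultures was shared by many members. Taking basal and KCl together, wild-type culture 1 was the highest for 30 of the 51 members, as for 35.2% of all genes, and SA culture 1 was the lowest for 34, as for 26.6% of all genes. Wild-type culture 2 was the highest for 9 (17.1% of all genes) and the lowest for 1 (19.6%), and SA culture 2 was the highest for 6 (20.4%) and the lowest for 4 (19.1%). Col5a2 stood at 106 CPM in wild-type culture 1 and 22.7 CPM in SA culture 1, a ratio of 4.68, and Aldh1a2 at 4.97 and 0.679 CPM, a ratio of 7.32. For 12 members wild-type culture 1 was the lowest instead, as for 34.6% of all genes. These included Col14a1 (1.41 CPM against 4.40 to 5.17 CPM in the other cultures), Col9a2 (1.19 CPM against 4.37 to 5.34 CPM) and all 3 type IX chains. Col23a1 and Col26a1 hardly varied, with ratios of the highest to the lowest culture of 1.14 and 1.15.

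**Figure D4:**
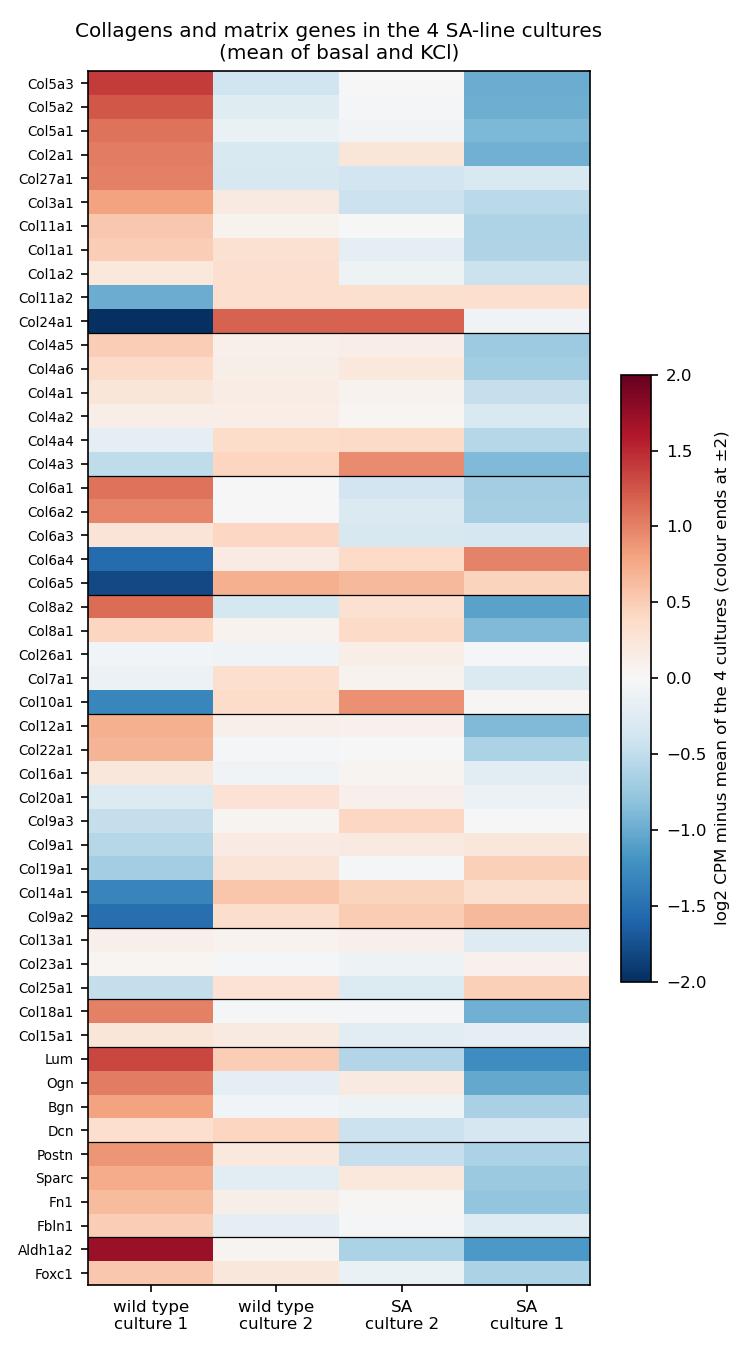
Log2 CPM of each tested member in the 4 SA-line cultures (columns, basal and KCl averaged) minus the mean of the 4, in colour from -2 to 2, with members grouped by class between the lines. Wild-type culture 1 is the highest for 30 members and the lowest for 12, and SA culture 1 is the lowest for 34.

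Marker lists moved with the same cultures, some being highest and some lowest in wild-type culture 1. Meningeal fibroblast markers outside the members summed to 1136 and 1219 CPM in wild-type culture 1 and to 449 to 753 CPM in the other 3 cultures. Mural markers summed to 992 and 1146 CPM in wild-type culture 1 and to 345 and 403 CPM in SA culture 1, with SA culture 2 at 751 and 967 CPM. Choroid plexus markers summed to 769 and 786 CPM in wild-type culture 1 and to 160 and 167 CPM in SA culture 1, with 208 to 490 CPM in the others. Proliferation genes summed to 725 and 746 CPM in wild-type culture 1 and to 285 and 300 CPM in SA culture 1. Endothelial markers were also highest in wild-type culture 1 (49.0 and 54.8 CPM). Astrocyte markers were lowest there, at 1820 and 1984 CPM against 2508 to 2828 CPM in the other 3 cultures. So were glutamatergic markers (741 and 810 CPM against 1286 to 1665 CPM) and pan-neuronal markers (4013 and 4337 CPM against 4982 to 6731 CPM). Microglial markers overlapped between the cultures. The part of these lists in the collagen differences was not tested.

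Leaving out both libraries of 1 culture at a time moved the basal median of the members between -0.92 (without SA culture 2) and -0.28 (without SA culture 1), and the median after KCl between -0.85 and -0.17. Without wild-type culture 2 the comparison called 8 members lower and 5 higher at basal, and 11 lower and 5 higher after KCl, among 1998 and 2376 genes called in all. With that culture left out the lone wild-type culture is assumed to vary like the other groups, and it is the culture that stands apart.

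Across the 14 libraries, with log2 CPM centred within line and treatment, Col1a2 followed Col1a1 most closely of the members (Pearson r = 0.942, the second highest of 14564 genes), then Postn (0.865), Col6a3 (0.857) and Fn1 (0.852). The genes outside the members with the highest values were Shroom4 (0.976), Otud7b (0.925), Ttll4 (0.917), Osmr (0.916), Cep250 (0.910), AC124426.4 (0.908), Dock10 (0.905) and Scml2 (0.905). The median over the members was 0.602, against -0.014 over all genes, and the lowest value was that of Col9a2 (-0.506). These values describe 14 libraries of 7 cultures, whose basal and KCl libraries share a number, and the genes of a library share its depth and composition. Centring was not within genotype, so the differences between SA and wild type and the distance of wild-type culture 1 are part of these values.

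In the SE line the SE cultures were compared with a wild type of 1 culture. No gene passed at basal or after KCl (0% of 17732 genes by edgeR). At an unadjusted p under 0.05 there was 1 member at basal (1.05% of all genes) and 4 after KCl (1.35% of all genes). The member at basal was Col1a1, at 6.86 and 4.42 CPM in SE and 10.3 CPM in wild type. The 4 after KCl were Col9a3, Col1a2, Col9a1 and Dcn, of which the first 3 were lower in SE. Col9a3 was at 14.8 and 16.3 CPM in SE and 28.7 CPM in wild type after KCl, and when the SE line was fitted alone it was called lower (-0.90 ± 0.14, edgeR adjusted p = 0.00724), as was Col8a1 (-1.35 ± 0.25, adjusted p = 0.029). That fit called 31 of 17115 genes (0.181%). The wild-type library after KCl also held 527 CPM of choroid plexus markers, against 180 CPM in its basal library and 6.58 to 70.6 CPM in the 4 SE libraries, and their part was not tested. Over basal and KCl together 8 members were lower in every SE library than in both wild-type libraries, as in 5.19% of all genes, and 2 were higher, as in 4.46%. Of the lower members Col1a1, Col6a3 and Lum did not overlap between the genotypes of the SA line either, while Col14a1, Col4a5, Col5a2, Col8a1 and Sparc did. Lum rests on 5 to 8 counts in each SE library and on 11 and 20 counts in the wild-type libraries.

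Depolarisation for 1 h was followed by small changes in most members. None passed in the main fit over all 14 libraries, which did not pair libraries by number. A fit with a replicate block by culture sets each KCl library against the basal library of its culture. Over the 7 cultures it called Col5a1 (0.51 ± 0.07, edgeR adjusted p = 0.000104), Col4a2 (0.29 ± 0.06, adjusted p = 0.00217) and others. It also called many genes outside the members, and both counts are given at the end. In the main fit no member was called in the comparison of KCl with basal over the 7 cultures, where 4.82% of all genes were (2.81% higher and 2% lower), nor in the SA line (2.02% of all genes) or the SE line (2.31%). At an unadjusted p under 0.05 there were 4 members over the 7 cultures (13.8% of all genes), 2 in the SA line (8.05%) and 6 in the SE line (10.5%). The lowest adjusted p over the 7 cultures was 0.074, that of the transmembrane collagen Col13a1 (0.98 ± 0.26) at levels of at most 0.807 CPM. The members' median log2 change was 0.14 over the 7 cultures, 0.05 in the SA line and 0.24 in the SE line, against 0.01, -0.00066 and 0.01 for all genes. Col11a2, Col1a2, Col23a1 and Col26a1 were higher after KCl in all 7 cultures, as in 6.92% of all genes, by at most 0.472 on the log2 scale for any culture of these 4 genes, and no member was lower in all 7, as in 6.34% of all genes.

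Col5a1 was higher after KCl in all 3 SE-line cultures. In the SE line it went from 27.3 to 55.3 CPM in wild type, from 28.1 to 61.8 CPM in SE culture 1 and from 20.6 to 44.2 CPM in SE culture 2. In the SA line it went from 51.3 to 66.0 CPM and from 27.6 to 23.1 CPM in wild type, and from 14.3 to 15.3 CPM and from 26.3 to 27.0 CPM in SA. The SE-line cultures were thus higher after KCl by 1.01 to 1.13 on the log2 scale, and the SA-line cultures differed by -0.26 to 0.36. The log2 change in the SE line was 1.07 ± 0.45 with an adjusted p of 0.423 when all 14 libraries set the spread (edgeR). When the SE line was fitted alone it was 1.07 ± 0.13 with an adjusted p of 2.59e-05, in a fit that called 1479 of 17115 genes (8.64%). The difference between the lines' responses was 0.95 ± 0.57 (adjusted p = 1.00) in the main fit, and 0.107% of all genes passed there. With the block by culture the difference for Col5a1 was 1.00 ± 0.14 (edgeR adjusted p = 0.00168). This call thus depends on whether libraries are taken as pairs.

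Fitting the SE line alone also called Col4a2 (0.48 ± 0.10), Col4a4 (1.04 ± 0.28) and Col9a3 (0.62 ± 0.11) as higher and Col15a1 (-0.82 ± 0.17) as lower after KCl. Col4a2 went from 54.6 to 73.6 CPM in wild type and from 57.1 to 90.1 and 55.5 to 72.9 CPM in SE. Its neighbour Col4a1 moved less, from 46.6 to 47.3 CPM in wild type and from 51.0 to 58.1 and 39.2 to 45.9 CPM in SE. Col15a1 went from 5.07 to 2.84 CPM in wild type and from 5.68 to 3.32 and 5.51 to 3.06 CPM in SE. Every SE-line culture moved the same way for these genes, and in the main fit over all 14 libraries none of them passed (adjusted p from 0.186 for Col4a2 to 0.398 for Col4a4). The block by culture called Col4a2, Col4a4, Col9a3 and Col15a1 in the SE line, with the count over all genes given at the end. The fit of the SE line alone thus called 5 members where it called 8.64% of all genes. In the main fit over all 14 libraries no member passed in the 3 tests of a difference in KCl response, where at most 0.107% of all genes did. At an unadjusted p under 0.05 there were 0 members between SA and wild type (0.688% of all genes), 3 between SE and wild type (0.897%) and 1 between the lines (2.91%). Col10a1 and Col20a1 moved in opposite directions in every culture of the lines, as did 1.45% of all genes, and neither difference passed.

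**Figure D5:**
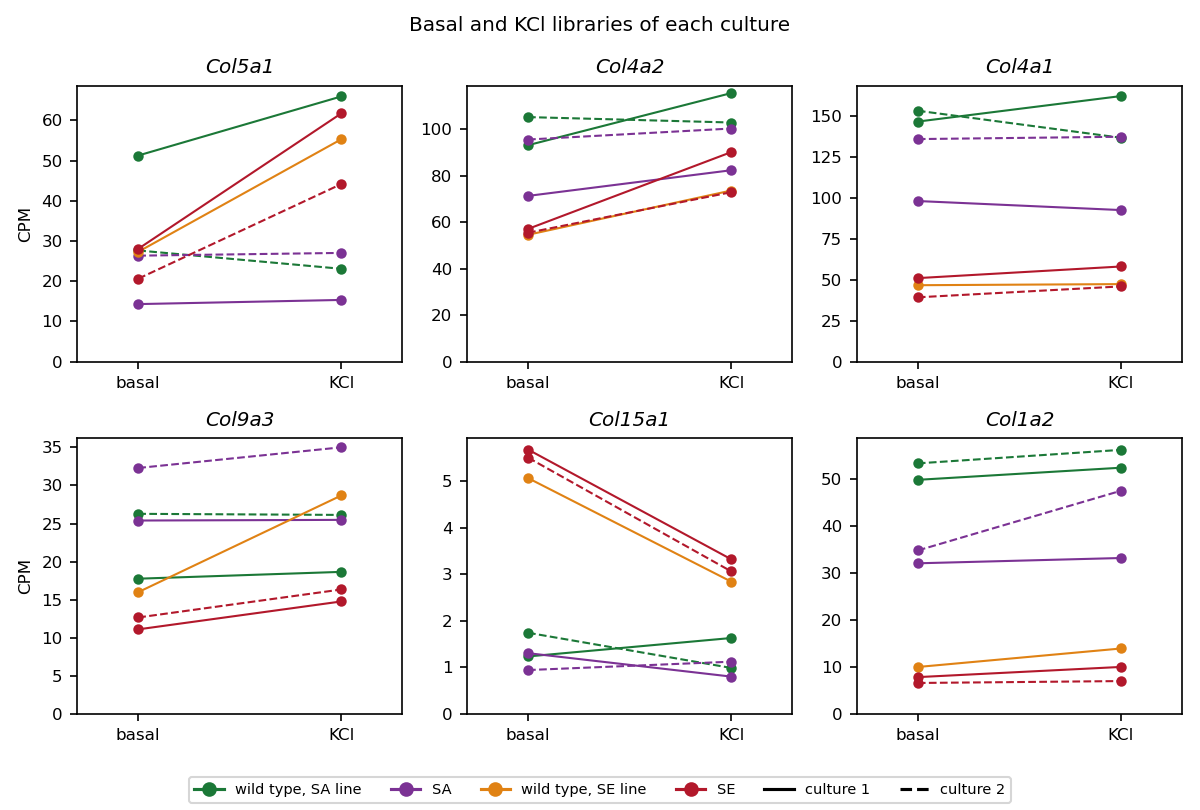
CPM at basal and after KCl for 6 members, with 1 line per culture (solid for culture 1, dashed for culture 2). Col5a1 and Col4a2 are higher and Col15a1 is lower after KCl in all 3 SE-line cultures, while the SA-line cultures do not share a direction for these genes.

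At the level of transcripts, 68 transcripts of 39 members averaged at least 0.5 TPM. Of these, 30 were below the SA line in every SE-line library and 5 were above, against 12.5% and 6.36% of 44075 transcripts at that level. Col5a1 was carried by its full-length transcript Col5a1-201, at 3.16 to 4.35 TPM at basal and 6.90 to 9.49 TPM after KCl in the SE line. Col26a1 was mixed: the coding transcript Col26a1-202 was at 12.4 TPM or more in the SA line and at 2.42 to 5.05 TPM in the SE line. The short noncoding transcript Col26a1-204 (280 bases, chromosome 5, 136757663 to 136773046) was at 0 to 1.22 TPM and 3.81 to 11.7 TPM. That rests on 5.20 to 17.9 estimated counts in each SE-line library and 0 to 1.63 in each SA-line library, so the level of Col26a1 in TPM is raised by a transcript with few reads.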

How the data were processed

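RNA from 14 libraries of cultured cortical neurons was measured by RNA-seq. The deposited estimated counts and TPM per gene and transcript came from kallisto 0.43.1 on GRCm38/mm10, per the submitters' processing notes, and 65.6% of nonzero gene counts were not whole, as for estimated counts. The TPM values were used as the authors deposited them, to compare levels between genes. Gene counts were rounded and fitted with edgeR 4.0.16 in R 4.3.3 (TMM scaling, filterByExpr, quasi-likelihood test, 8 group means, 6 residual degrees of freedom), with Benjamini-Hochberg adjustment over 17732 genes and calls at an adjusted p under 0.05. SEs are on the log2 scale and were derived from that test, as the size of the log2 difference over the square root of its F value. Log2 CPM used a prior count of 2. The procedure was tested on simulated counts. DESeq2 1.42.0, other size factors, no filter, each library or culture left out, each line alone and replicate blocks were alternatives.

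Groups came from the sample labels. Libraries held 22626000 to 23096000 counts each, so depth differed little. Same-numbered basal and KCl libraries correlated in their deviations from the group mean by 0.42 (SA), 0.67 (wild type of the SA line) and -0.051 (SE). The values of the SA line were positive and that of SE was not, and the main fit did not take numbers as pairs. Spread between cultures thus counts as error in its KCl tests. For Col5a1 over the 7 cultures the SE was 0.27 there and 0.07 with a block by culture. Positions are from GENCODE M21, on GRCm38. The members, gene lists and tests were chosen with earlier results of these data known. Named genes were the member of highest mean TPM in each class, 12 listed members and up to 4 called members of lowest p in each comparison, and other members given values were named after their values were seen.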

Additional observations from a re-analysis of the deposited data

Results flagged for a closer look

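The KCl change of Col10a1 and Col20a1 went in opposite directions in every culture of the lines, as it did for 1.45% of all genes. Col10a1 was higher after KCl in all 4 SA-line cultures, by 0.46 to 2.58 on the log2 scale, and lower in all 3 SE-line cultures, at -0.35 to -0.13. The value of 2.58 was that of wild-type culture 1 (SA line) and rests on 5 counts at basal and 55 after KCl. The difference of the fitted responses, SE line minus SA line, was -1.12 ± 0.87 (edgeR adjusted p = 1.00). Col20a1 was lower in all 4 SA-line cultures, at -0.45 to -0.22, and higher in all 3 SE-line cultures, by 0.13 to 0.23, with a difference of 0.53 ± 0.41 (edgeR adjusted p = 1.00). Neither difference passed the test.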

How the results depend on the processing

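The line difference kept its direction in most settings: leaving out 1 library at a time gave 31 to 37 members lower and 4 to 5 higher at basal, and 28 to 34 lower and 3 to 7 higher after KCl. After KCl, 3 members were higher with wild-type libraries alone, where Col9a3 reversed to 0.36, while without wild-type culture 1 Col9a3 (-0.41) and Col10a1 (1.06) passed. For SA against wild type, leaving out libraries gave 0 to 8 members lower and 0 to 5 higher at basal, and 0 to 11 lower and 0 to 5 higher after KCl, with every call from leaving out wild-type culture 2. Sparc after KCl ranged from -1.10 to 0.17 over these settings and reversed to 0.17 without wild-type culture 1. In the SA line the KCl change of Col5a1 ranged from -0.36 to 0.40 as libraries were left out, with reversed values of -0.07, -0.12, -0.36 and -0.07. The SE line alone gave 2 members lower in SE after KCl (31 genes in all), and 4 higher and 1 lower with KCl (1479 genes in all).

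A replicate block by culture gave 8 of the 51 tested members higher with KCl over the 7 cultures, where 2328 of 17732 genes were called in all. They were Col13a1, Col1a1, Col1a2, Col23a1, Col4a2, Col4a4, Col5a1 and Col9a3. In the SA line 2 of 51 were higher (Col10a1 and Col3a1), where 1040 of 17732 genes were called. In the SE line 4 of 51 were higher and 1 was lower, where 1594 of 17732 genes were called. The response was higher in the SE line for 2 of 51 members, where 133 of 17732 genes were called. These were Col5a1, by 1.00 ± 0.14 (adjusted p = 0.00168, edgeR), and Col9a3, by 0.57 ± 0.11 (adjusted p = 0.0244, edgeR). In the SE line alone this block gave 6 higher and 1 lower. A block by number within line gave 1 member higher with KCl in the SE line and 0 in SA against wild type. Same-numbered SA and wild-type libraries correlated by -0.31 at basal and -0.28 after KCl, and a block with crossed numbers, added after seeing the data, gave 0 members at basal and 9 lower after KCl (221 genes in all). The causes were not tested. The wild type of the SE line has 1 library per treatment, which limits that comparison most.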
